A study of Mus musculus with 21 samples.

Results

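The 8 genes followed here were Hmgcs1, Idi1, Fdft1, Sqle, Lss, Insig1, Srebf1 and Srebf2, which make cholesterol or control its making. They were picked by name from the 24984 genes of a table of nascent RNA, and all 8 were among the 16959 genes that were tested. The RNA came from cortical cultures of CD1 mice on day 17 in vitro, and it was measured by BrU-seq. Living cells build bromouridine into new transcripts, which are then pulled out and sequenced. All cultures were held for 30 min in DMSO, the solvent, or in 25 µM MM401, a peptide-like inhibitor that keeps the histone methyltransferase MLL1 from binding WDR5. They were then given 40 µM bicuculline, an antagonist of GABA-A receptors that raises network firing, or sterile water as its vehicle, for 1 h or 4 h. Bromouridine at 2 mM was present in the last 30 min in all groups.

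There were 7 groups, each of 3 biological replicates of mixed sex per the labels: DMSO with water at 4 h, DMSO with bicuculline at 1 h and at 4 h, MM401 with water at 1 h and at 4 h, and MM401 with bicuculline at 1 h and at 4 h. A DMSO group with water at 1 h was not analysed here, so the DMSO response at 1 h was taken against water at 4 h. The labels call them neuron cultures, and they do not say whether the replicates came from separate litters, so p-values measure the spread between these libraries. Replicate 3 of MM401 with water at 4 h held 316741 counts, 0.503% of the median of the other libraries, and it was left out, so that this group has 2 libraries. The other 20 libraries held 49886348 to 87939384 counts in genes, with a median of 62996146.

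Cells build cholesterol from acetyl-CoA. The early enzymes make mevalonate and then the isoprenoid units that are joined into farnesyl pyrophosphate, which also feeds the prenylation of proteins and the making of ubiquinone. Squalene is then formed, oxidised and closed into the first sterol, lanosterol, and later enzymes turn lanosterol into cholesterol. The transcription factors SREBP1 and SREBP2, made from Srebf1 and Srebf2, sit in the membrane of the endoplasmic reticulum with the escort protein SCAP. INSIG proteins hold them there while sterols are plentiful, and when sterols fall the SREBPs travel to the Golgi, are cut, and switch on the genes of the pathway from sterol response elements. Lipoproteins of the blood do not cross into the brain, which therefore makes its own cholesterol, largely in glia, while neurons also hold the enzymes.

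The promoters of 4 of the genes are shown because they hold the pair that rose most at 1 h (Hmgcs1 and Idi1), the feedback gene that rose at 1 h and had come down by 4 h (Insig1) and the enzyme gene that did not rise (Lss). Each run is the 250 bases before a transcription start that the RefSeq promoter table lists for the gene (GRCm38.p6), 5′ to 3′, and all 4 genes lie on the plus strand. The last 40 bases of the Lss run lie inside the span of the gene as RefSeq gives it, and 0 bases of the other 3 do. Capitals mark letters of a sterol response element (TCACNCCAC or its reverse complement) and of the NF-Y box (CCAAT or ATTGG). The windows are chr13:119690101-119690350 for Hmgcs1, chr13:8885356-8885605 for Idi1, chr5:28071162-28071411 for Insig1 and chr10:76531355-76531604 for Lss.
Hmgcs1: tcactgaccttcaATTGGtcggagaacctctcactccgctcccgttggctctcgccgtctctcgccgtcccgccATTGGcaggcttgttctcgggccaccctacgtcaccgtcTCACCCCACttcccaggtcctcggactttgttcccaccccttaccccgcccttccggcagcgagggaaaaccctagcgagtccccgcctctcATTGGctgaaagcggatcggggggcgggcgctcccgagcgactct
Idi1: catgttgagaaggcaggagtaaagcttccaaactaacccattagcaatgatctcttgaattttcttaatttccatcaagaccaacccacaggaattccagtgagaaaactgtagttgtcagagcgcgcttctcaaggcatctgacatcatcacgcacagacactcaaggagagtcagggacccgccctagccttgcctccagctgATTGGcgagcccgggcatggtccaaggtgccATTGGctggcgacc
Insig1: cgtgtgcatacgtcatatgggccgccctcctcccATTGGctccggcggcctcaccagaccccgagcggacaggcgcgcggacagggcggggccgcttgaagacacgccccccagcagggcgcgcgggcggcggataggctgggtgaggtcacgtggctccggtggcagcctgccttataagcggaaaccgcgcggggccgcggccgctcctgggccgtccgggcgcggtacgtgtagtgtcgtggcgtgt
Lss: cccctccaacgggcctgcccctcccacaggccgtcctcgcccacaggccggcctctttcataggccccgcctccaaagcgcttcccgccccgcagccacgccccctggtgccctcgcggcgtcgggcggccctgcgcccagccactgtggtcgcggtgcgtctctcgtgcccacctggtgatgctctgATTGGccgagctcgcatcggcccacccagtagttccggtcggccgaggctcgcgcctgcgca
RefSeq windows were at hand for 6 of the 8 genes, the exceptions being Sqle and Fdft1. The sterol response element letters were found in the window of 1 of these 6 genes, Hmgcs1, at -137 to -129 from its start, and 1.05% of all 32851 RefSeq windows of this length hold them. NF-Y letters were found in windows of all 6 genes, in 7 of their 8 windows, and in 33.8% of all windows. Hmgcs1 had 3 such matches, at -237, -176 and -45. The E-box CACGTG was in the Insig1 window only, among the 6 genes, and in 6.02% of all windows. The GC box GGGCGG was in a window of each of the 6 genes (7 of 8 windows, against 32.7% of all windows). The core TGACG of the cyclic AMP response element was in windows of 3 genes (3 of 8 windows, against 17.8%), and the AP-1 site TGANTCA was in none (6.75%). Both strands were searched, Srebf1 has 3 windows, all inside its RefSeq span, and overlap between motifs was allowed. A match is a run of letters, and no binding was measured.

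Levels of genes were compared per kilobase of gene, since the counts cover the whole gene with its introns. In the DMSO water libraries Hmgcs1 led with 6.65 ± 0.939 CPM per kb (CPM are counts relative to the scaled library total; mean ± SD, n = 3) and Insig1 followed with 5.40 ± 0.537 CPM per kb. Fdft1 (1.96 ± 0.0700 CPM per kb), Srebf2 (1.62 ± 0.0605 CPM per kb), Sqle (1.32 ± 0.136 CPM per kb) and Idi1 (1.25 ± 0.0257 CPM per kb) formed a lower tier. Srebf1 (0.945 ± 0.202 CPM per kb) and Lss (0.804 ± 0.0894 CPM per kb) were lowest. The libraries of Sqle and Idi1 overlapped, as did those of Srebf1 and Lss, and the other neighbours in this order did not overlap. Averaged over the 20 libraries, Hmgcs1 (11.7 CPM per kb) stood at percentile 99.4 of the tested genes and Insig1 (6.53 CPM per kb) at percentile 98.4. Srebf1 (0.932 CPM per kb) stood at percentile 63.9 and Lss (0.746 CPM per kb) at percentile 56.5.

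Nascent RNA of most of the 8 genes was higher in bicuculline than in water. Hmgcs1 and Idi1 rose most, by 2.47- to 2.98-fold at 1 h. Insig1 and Fdft1 had larger fold changes at 1 h than at 4 h, and in MM401 both were still called higher at 4 h. In DMSO both times were taken against water at 4 h. In MM401, where each time had its own water, the difference between the 2 responses was not tested. Sqle rose at both times, and Lss was the exception among the enzymes. At 1 h in DMSO 6 of the 8 genes were called higher (Hmgcs1, Idi1, Insig1, Sqle, Fdft1 and Srebf2) and 0 lower, where called means a Benjamini-Hochberg adjusted p of edgeR's quasi-likelihood test under 0.05 over all tested genes. In that comparison 44.6% of all tested genes were called, 20% higher and 24.5% lower. At 4 h in DMSO 5 were called higher and 1, Lss, lower, beside 49.2% of all genes called, 23.7% higher and 25.5% lower. In MM401 at 1 h the same 6 genes were called higher and 0 lower, against 39.9% of all genes, 18.1% higher and 21.8% lower. In MM401 at 4 h 7 were called higher and Lss lower, against 44.6% of all genes, 23.0% higher and 21.7% lower. Under plain library size the 8 genes gave 5 higher and 1 lower at 1 h in each arm, 3 and 2 at 4 h in DMSO (Lss and Insig1 lower), and 4 and 1 at 4 h in MM401. Of all tested genes, that scaling called 10.8% higher and 40.2% lower at 1 h in DMSO, 10.7% and 46.4% at 4 h, 7.52% and 38.6% at 1 h in MM401, and 16.5% and 24.4% at 4 h. In this last comparison 5 were called in all when either MM401 water library at 4 h was left out (the lone one then being assumed to vary like the other groups). The DMSO comparisons at 1 h and 4 h share their 3 water libraries. The median log2 fold change of the 8 genes was 0.51 at 1 h and 0.18 at 4 h in DMSO, and 0.52 and 0.35 in MM401, while the median over all tested genes lay between -0.04 and 0.02. Scaling by plain library size in place of TMM moved the median gene by -0.19, -0.28, -0.21 and -0.074 on the log2 scale in these comparisons, in the order DMSO 1 h, DMSO 4 h, MM401 1 h and MM401 4 h. The share of all calls that were higher then went from 44.9% to 21.2%, from 48.1% to 18.8%, from 45.4% to 16.3% and from 51.5% to 40.3%.

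**Figure D1:**
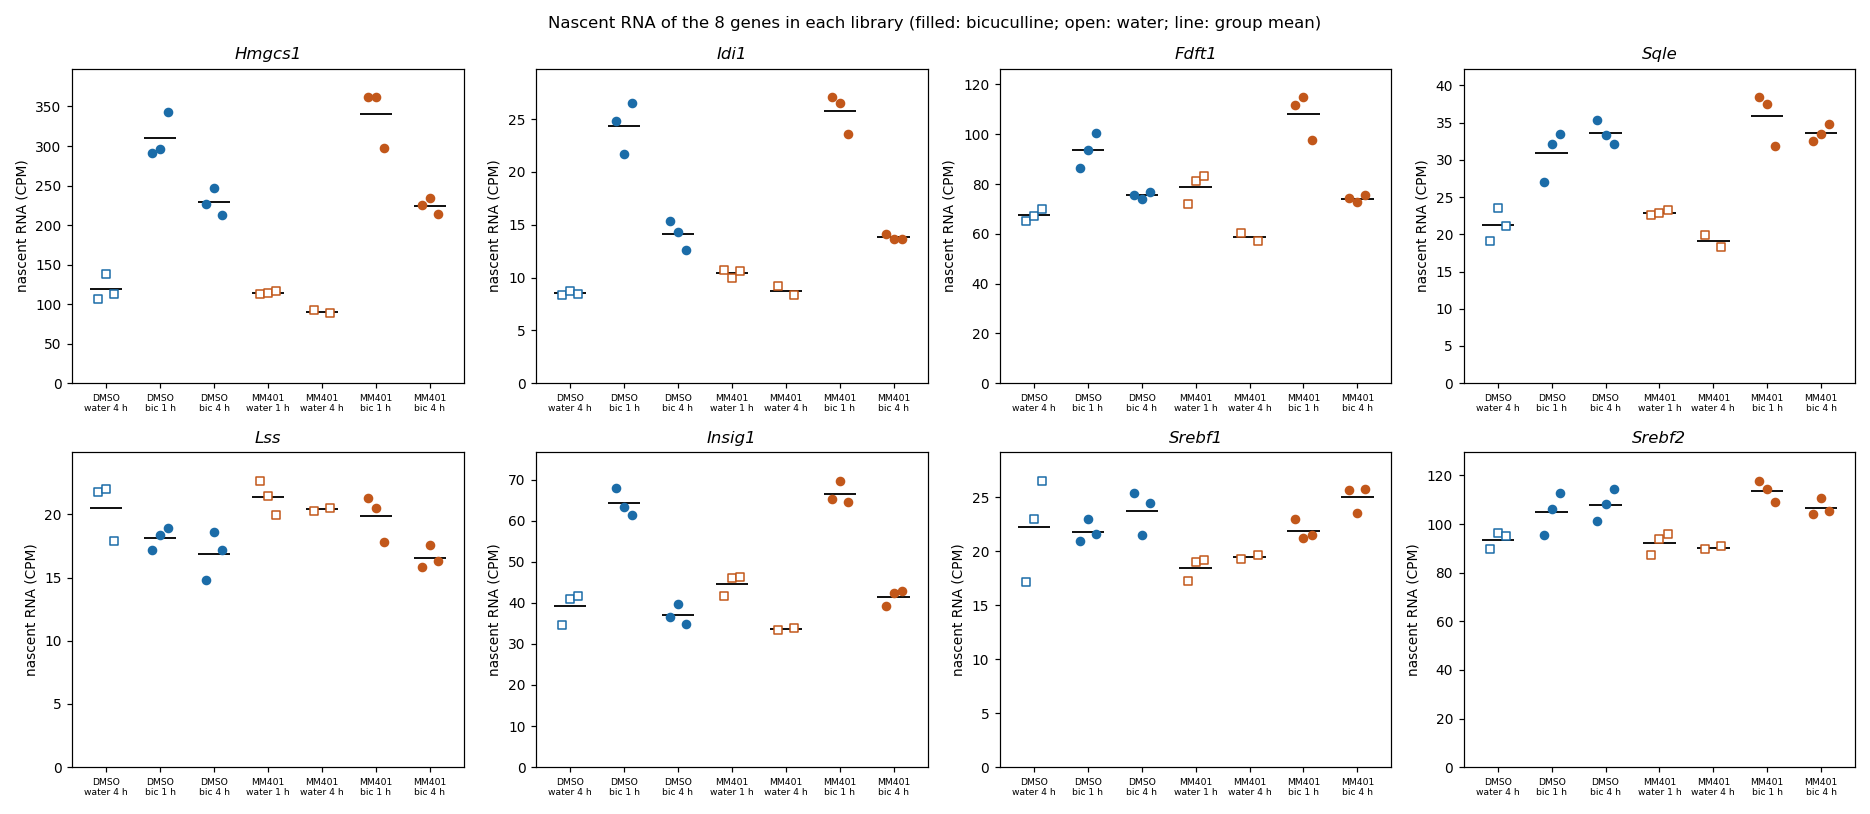
Nascent RNA of each of the 8 genes in each of the 20 libraries, in CPM (vertical axes start at 0), by group; filled circles are bicuculline, open squares water, and lines group means. Hmgcs1 and Idi1 in bicuculline lie above every water library at both times, Insig1 is highest at 1 h, and Lss in bicuculline at 4 h has the lowest library of each arm.

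Hmgcs1 makes HMG-CoA, the substrate from which mevalonate is formed, and it is a standard target of SREBP2. It lies at chr13:119690350-119708260 on the plus strand of mm10. Positions are given as the table has them, and for 6 of the 8 genes its start lies 1 base before the RefSeq start. In DMSO it measured 107, 138 and 113 CPM in the 3 water libraries, 291, 296 and 343 CPM after 1 h of bicuculline and 226, 247 and 212 CPM after 4 h. Every bicuculline library was above every water library, and every 1 h library was above every 4 h library. The log2 fold change over water was 1.38 ± 0.091 (± SE, adjusted p = 8.59e-11), a 2.60-fold rise, at 1 h and 0.94 ± 0.090 (adjusted p = 2.00e-08) at 4 h. In MM401 it measured 113, 113 and 117 CPM in water at 1 h, 92.5 and 88.6 CPM in the 2 water libraries at 4 h, 362, 362 and 298 CPM in bicuculline at 1 h and 225, 234 and 214 CPM in bicuculline at 4 h. The groups were again apart at both times. The log2 fold change was 1.57 ± 0.092 (adjusted p = 1.08e-11) at 1 h, where 0.926% of all tested genes had a higher value, and 1.31 ± 0.11 (adjusted p = 3.32e-09) at 4 h, where 2.40% did. Among 11794 genes with a mean of at least 2 CPM, those whose CPM followed Hmgcs1 most closely over the 20 libraries were Zdbf2 (Pearson r = 0.987), the sterol enzyme gene Msmo1 (r = 0.987) and the sodium pump subunit gene Atp1b1 (r = 0.985); these libraries share their treatments.

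Idi1, the isomerase that balances the pair of isoprenoid building blocks, had the largest fold change of the 8 genes at 1 h in DMSO and the second largest in MM401. Its gene is short, at chr13:8885605-8892396 on the plus strand. In DMSO its values were 8.38, 8.71 and 8.46 CPM in water, 24.8, 21.7 and 26.5 CPM at 1 h and 15.4, 14.3 and 12.6 CPM at 4 h of bicuculline. No water library reached a bicuculline library, and the 4 h values fell between water and 1 h. The rise was 2.85-fold at 1 h (log2 1.51 ± 0.085, adjusted p = 5.29e-12) and 1.65-fold at 4 h (log2 0.72 ± 0.085, adjusted p = 3.74e-07). In MM401 the values were 10.7, 9.93 and 10.6 CPM and 9.24 and 8.30 CPM in water at 1 h and 4 h, and 27.1, 26.5 and 23.6 CPM and 14.1, 13.7 and 13.7 CPM in bicuculline at 1 h and 4 h. Bicuculline and water did not overlap at either time. The MM401 response was 2.47-fold at 1 h (log2 1.30 ± 0.085, adjusted p = 5.06e-11) and 1.58-fold at 4 h (log2 0.66 ± 0.098, adjusted p = 1.24e-05). The closest profiles over the 20 libraries were those of Ccn1 (r = 0.981), Coq10b (r = 0.981) and Ube2ql1 (r = 0.979), and that of Hmgcs1 had r = 0.939.

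Fdft1, squalene synthase, commits farnesyl pyrophosphate to sterols, and its gene lies at chr14:63145150-63179578 on the minus strand. Its DMSO values were 65.1, 67.3 and 69.96 CPM in water, 86.5, 93.7 and 101 CPM at 1 h and 75.8, 73.9 and 76.7 CPM at 4 h of bicuculline. All 1 h libraries were above all others, and the 4 h libraries lay just above water. At 1 h the log2 fold change was 0.47 ± 0.066 (adjusted p = 5.56e-06). At 4 h it was 0.16 ± 0.066 (adjusted p = 0.0481), a call that was lost when any 1 of the 6 libraries was left out, with 21 libraries, with the groups fitted alone or with no low-count filter, and whose sign turned to -0.12 under plain library size. In MM401 Fdft1 measured 71.98, 81.2 and 83.3 CPM in water at 1 h, 60.3 and 57.2 CPM in water at 4 h, 112, 115 and 97.9 CPM in bicuculline at 1 h and 74.2, 72.6 and 75.7 CPM at 4 h. Water itself was lower at 4 h than at 1 h, and bicuculline was above water at each time. Over water the log2 change was 0.46 ± 0.066 (adjusted p = 9.61e-06) at 1 h, or 0.88 when water at 4 h was the reference as in DMSO (chosen after seeing the data), and 0.34 ± 0.075 (adjusted p = 9.10e-04) at 4 h. Fdft1 overlaps Ctsb, on the opposite strand, over 774 bases (2.25% of its span), and since the use of strand is not given in the sources used here, reads there cannot be told apart. Atp11a (r = 0.955) and Fgfr2 (r = 0.950) were among the genes with the profiles most like it.

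Sqle, squalene epoxidase, is a rate-limiting step after squalene, and its gene lies at chr15:59315091-59331193 on the plus strand. Its DMSO values were 19.1, 23.5 and 21.2 CPM in water, 27.1, 32.2 and 33.5 CPM at 1 h and 35.3, 33.4 and 32.1 CPM at 4 h. Here the libraries at 4 h overlapped those at 1 h, and both times were clear of water. Sqle rose by 0.54 ± 0.084 on the log2 scale (adjusted p = 2.22e-05) at 1 h and 0.66 ± 0.084 (adjusted p = 1.09e-06) at 4 h. In MM401 the values were 22.5, 22.8 and 23.3 CPM and 19.97 and 18.3 CPM in water at 1 h and 4 h, and 38.4, 37.5 and 31.9 CPM and 32.6, 33.4 and 34.8 CPM in bicuculline. The same separation was seen there, with log2 fold changes of 0.65 ± 0.084 (adjusted p = 2.31e-06) at 1 h and 0.81 ± 0.097 (adjusted p = 6.99e-07) at 4 h. With MM401 water at 4 h as the reference, the value at 1 h was 0.91. The profiles of Alpk1 (r = 0.959), Ciapin1 (r = 0.958) and the chaperone gene Hsph1 (r = 0.957) were most like that of Sqle, and Hmgcs1 had r = 0.923.

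Lss, lanosterol synthase, closes the squalene epoxide into lanosterol, and it is the enzyme gene of the 8 that did not rise. It lies at chr10:76531604-76557139 on the plus strand. The DMSO values were 21.7, 21.98 and 17.9 CPM in water, 17.1, 18.4 and 18.9 CPM at 1 h and 14.8, 18.6 and 17.1 CPM at 4 h of bicuculline. The groups overlapped, since the lowest water library lay among the bicuculline libraries. The log2 difference was -0.18 ± 0.090 (adjusted p = 0.112, not called) at 1 h and -0.28 ± 0.090 (adjusted p = 0.0125, called lower) at 4 h. In MM401 Lss measured 22.6, 21.5 and 19.98 CPM in water at 1 h, 20.3 and 20.5 CPM in water at 4 h, 21.3, 20.5 and 17.8 CPM in bicuculline at 1 h and 15.9, 17.5 and 16.3 CPM at 4 h. The 4 h bicuculline libraries were all below water there. The log2 difference was -0.11 ± 0.090 (adjusted p = 0.368, not called) at 1 h and -0.30 ± 0.10 (adjusted p = 0.0193, called lower) at 4 h. At 4 h the DMSO call was lost without bicuculline replicate 1 or water replicate 2, and the MM401 call without bicuculline replicate 1 or either water library, while the DMSO difference at 1 h became a call without water replicate 3. Under plain library size Lss was called lower at 1 h as well, in DMSO (-0.37, adjusted p = 0.00150) and in MM401 (-0.32, adjusted p = 0.00457). The noncoding gene 4930483K19Rik covers 44.1% of Lss on the other strand but never had more than 5 counts. Camk2a (r = 0.917) and Tars2 (r = 0.902) were among the genes with the profiles most like that of Lss.

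Insig1, which retains the SREBPs in the endoplasmic reticulum and is itself switched on by them, lies at chr5:28071411-28078662 on the plus strand. Its DMSO values were 34.7, 41.03 and 41.7 CPM in water, 67.9, 63.4 and 61.3 CPM at 1 h and 36.6, 39.7 and 34.8 CPM at 4 h of bicuculline. All 1 h libraries were high, and those at 4 h lay among the water libraries. The log2 fold change was 0.71 ± 0.070 (adjusted p = 3.70e-08) at 1 h and -0.081 ± 0.070 (adjusted p = 0.362, not called) at 4 h, where plain library size gave a called -0.36. In MM401 Insig1 measured 41.7, 46.01 and 46.3 CPM in water at 1 h, 33.4 and 33.9 CPM in water at 4 h, 65.4, 69.7 and 64.5 CPM in bicuculline at 1 h and 39.3, 42.4 and 42.8 CPM at 4 h. The bicuculline libraries at 4 h were above water at 4 h and overlapped water at 1 h. The log2 fold change was 0.57 ± 0.070 (adjusted p = 9.24e-07) at 1 h, or 0.98 against water at 4 h, and 0.30 ± 0.079 (adjusted p = 0.00361) at 4 h, where the call was lost under plain library size (0.23) and when the shallow library was kept (0.34). Dusp3 (r = 0.955), Cdh20 (r = 0.951) and Pmepa1 (r = 0.950) followed Insig1 most closely, and within the 8 genes Fdft1 did (r = 0.904).

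The genes of the transcription factors themselves moved little. Srebf2, at chr15:82147268-82204960 on the plus strand, measured 89.7, 96.2 and 95.04 CPM in DMSO water, 95.5, 106 and 113 CPM at 1 h and 101, 108 and 114 CPM at 4 h of bicuculline. At 1 h the lowest bicuculline library lay within the water libraries, and at 4 h none did. The log2 fold change was 0.16 ± 0.061 (adjusted p = 0.0357) at 1 h and 0.20 ± 0.061 (adjusted p = 0.00806) at 4 h, and under plain library size both turned negative (-0.03 and -0.07). The 1 h call was also lost without bicuculline replicate 2 or 3 or water replicate 1, and the 4 h call without bicuculline replicate 3. Both were lost with the shallow library kept, and the 1 h call with the groups fitted alone. In MM401 Srebf2 measured 87.3, 93.8 and 96.1 CPM and 89.5 and 90.8 CPM in water at 1 h and 4 h, and 118, 114 and 109 CPM and 104, 111 and 105 CPM in bicuculline. No library overlapped between bicuculline and water. In log2 terms the change was 0.30 ± 0.061 (adjusted p = 4.89e-04) at 1 h and 0.24 ± 0.069 (adjusted p = 0.00668) at 4 h; neither was called under plain library size, and the 4 h call was lost without either water library. Mir33, a microRNA gene in an intron of Srebf2, had 0 counts in all 20 libraries. Preb (r = 0.961), Hsph1 (r = 0.932) and Stat3 (r = 0.920) had the most similar profiles.

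Srebf1, at chr11:60199083-60222581 on the minus strand, gives SREBP1, which leans towards the genes of fatty acid synthesis. In DMSO it measured 17.1, 23.01 and 26.5 CPM in water, 20.9, 22.95 and 21.6 CPM at 1 h and 25.4, 21.5 and 24.5 CPM at 4 h of bicuculline. The water libraries spanned all the bicuculline libraries. The log2 difference was -0.028 ± 0.10 (adjusted p = 0.848) at 1 h and 0.094 ± 0.10 (adjusted p = 0.484) at 4 h; neither was called, and the sign of each changed with the scaling (0.014 with DESeq2 at 1 h, -0.19 with plain library size at 4 h). In MM401 the values were 17.3, 19.01 and 19.2 CPM and 19.2 and 19.7 CPM in water at 1 h and 4 h, and 22.99, 21.2 and 21.5 CPM and 25.6, 23.5 and 25.8 CPM in bicuculline. Both bicuculline groups lay above the water group of the same time. At 1 h the log2 difference of 0.24 ± 0.11 was not called (adjusted p = 0.0717), whereas DESeq2 and a fit of the groups alone called it, and at 4 h 0.36 ± 0.12 was called (adjusted p = 0.0170), a call lost without either water library and under plain library size. The gene overlaps Rai1, on the opposite strand, over 113 bases. Cdc42ep4 (r = 0.942), Notch1 (r = 0.924) and Rin2 (r = 0.917) had the profiles most like that of Srebf1, and its correlation with Lss, r = -0.746, was the lowest among the 8 genes.

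**Figure D2:**
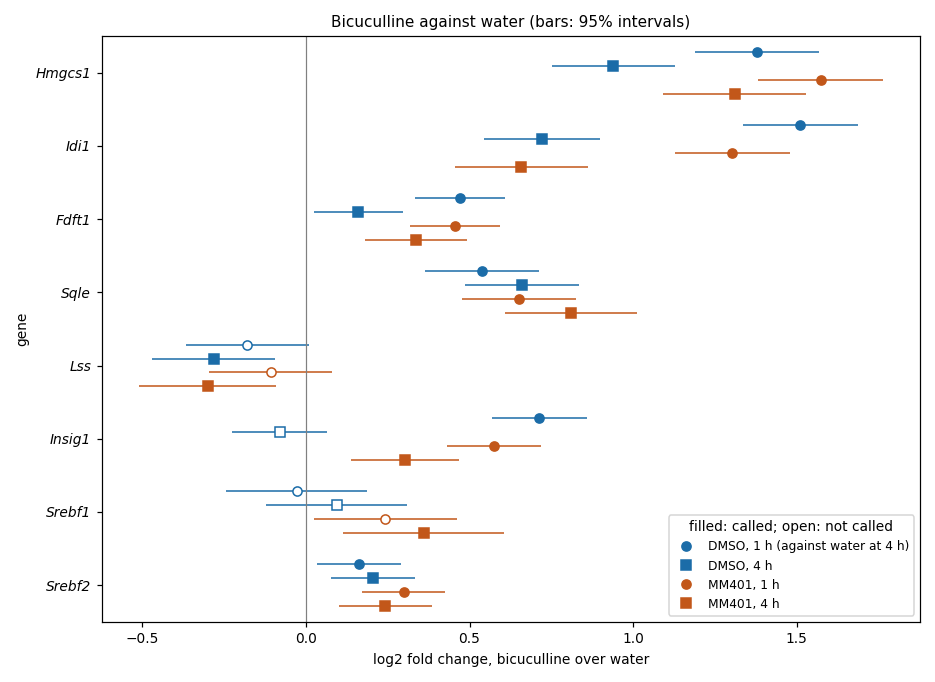
Log2 fold change of bicuculline over water for each of the 8 genes (edgeR, bars are 95% intervals), for DMSO and MM401 at 1 h and 4 h; filled symbols were called. Hmgcs1 and Idi1 reach 1.38 to 1.57 and 1.30 to 1.51 at 1 h, and Lss lies below 0 in all 4 comparisons.

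Between 1 h and 4 h of bicuculline the early risers came down. In DMSO 4 of the 8 genes were called lower at 4 h than at 1 h, while 34.2% of all tested genes were called, 19.1% higher and 15.2% lower. They were Insig1 (log2 -0.79 ± 0.070, adjusted p = 1.29e-08), Idi1 (-0.79 ± 0.083, 1.60e-07), Hmgcs1 (-0.44 ± 0.090, 5.27e-04) and Fdft1 (-0.31 ± 0.066, 7.25e-04). In MM401 5 were called lower, while 33.6% of all genes were called, 17.5% higher and 16% lower. Idi1 (log2 -0.89 ± 0.084, adjusted p = 3.62e-08), Insig1 (-0.68 ± 0.070, 1.26e-07), Hmgcs1 (-0.60 ± 0.090, 1.91e-05) and Fdft1 (-0.54 ± 0.066, 1.24e-06) were again among them, and Lss joined them (-0.26 ± 0.091, 0.0311), a call lost under plain library size (-0.18, adjusted p = 0.130) and without replicate 1 or 2 at 1 h or replicate 1 or 3 at 4 h. For Sqle the log2 differences of 0.12 ± 0.083 in DMSO and -0.096 ± 0.083 in MM401 were not called. Under plain library size the share of all calls that were higher went from 55.7% to 39.2% in DMSO and from 52.3% to 65.0% in MM401. Water alone differed by time in MM401 for Fdft1 (log2 -0.42 ± 0.075, adjusted p = 0.00589) and Insig1 (-0.41 ± 0.079, 0.0112), both lower at 4 h. These were 2 of only 147 genes called in that comparison (0.867% of the tested genes, 0.265% higher and 0.601% lower). The Fdft1 call was lost without either 4 h library, and the Insig1 call without replicate 2 or 3 at 1 h or either library at 4 h, or with the shallow library kept. Hmgcs1 (log2 -0.34 ± 0.10, adjusted p = 0.147), Sqle (-0.26 ± 0.096, 0.294) and Idi1 (-0.25 ± 0.098, 0.341) were not called, and both 4 h water libraries lay below all those at 1 h. For Srebf1 (0.075 ± 0.12, 0.931, not called) both lay above. The share of all tested genes without overlap was not counted. With the 2 water groups fitted alone, Hmgcs1 was called lower (-0.33, adjusted p = 0.00470). In the DMSO arm water at 1 h was not analysed here, so the part of time in its 1 h response was not tested.

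The remaining enzyme genes of the pathway also went both ways. Of the 20 enzyme genes described here, 5 of which are among the 8, 9 were called higher in both arms at 1 h and 1, Mvk, lower, while 13.2% of all tested genes were called higher in both and 17.3% lower in both. Under plain library size these counts were 6 and 4, beside 5.85% and 31.4% of all genes, and Pmvk, Lbr and Sc5d were no longer among those higher. Those at least 2-fold higher in both arms at 1 h were Hmgcs1, Idi1, Cyp51 and Msmo1. Cyp51, which removes a methyl group of lanosterol, averaged 50.8 ± 4.24 CPM in DMSO water, 128 ± 10.3 CPM at 1 h and 95.2 ± 5.36 CPM at 4 h of bicuculline (SD, n = 3). It rose by 1.33 ± 0.086 (log2, adjusted p = 6.11e-11) in DMSO and 1.38 ± 0.086 (adjusted p = 3.64e-11) in MM401 at 1 h and by 0.90 and 0.88 at 4 h. Msmo1, the next oxidase, rose by 1.24 in DMSO and 1.28 in MM401 at 1 h and by 0.90 and 1.04 at 4 h. Pmvk, a kinase of mevalonate metabolism, was higher at 4 h (0.85 in DMSO and 0.94 in MM401) as well as at 1 h (0.36 and 0.63), although under plain library size its DMSO value at 1 h was 0.16 and not called.

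At 4 h 10 of the 20 enzyme genes were called higher and 6 lower in both arms, while 16.8% of all tested genes were called higher in both and 16.7% lower in both. Plain library size gave 6 and 6, beside 8.92% and 22.8% of all genes, and Fdft1, Acat2, Lbr and Ebp were no longer among those higher. The 6 lower genes were Lss, Mvk, Fdps, Tm7sf2, Nsdhl and Dhcr7 under both scalings. Mvk, mevalonate kinase, went from a mean of 5.22 ± 0.400 to 2.98 ± 0.307 CPM in DMSO (log2 -0.81 ± 0.11, adjusted p = 1.45e-06), and it was -0.73 in MM401. Tm7sf2, a sterol reductase, had log2 differences of -0.85 and -0.85 at 4 h in DMSO and MM401. Dhcr7, which makes cholesterol in its last reduction on one branch, had -0.50 and -0.36. In the list of 6 other mevalonate genes 1 was called higher and 1 lower at 1 h in DMSO, 2 and 3 at 4 h, 2 and 1 at 1 h in MM401, and 3 and 2 at 4 h. For 9 other genes after squalene these counts were 4 and 0, 4 and 3, 5 and 0, and 4 and 3. The shares of all tested genes called higher and lower were 20% and 24.5% at 1 h in DMSO, 23.7% and 25.5% at 4 h, 18.1% and 21.8% at 1 h in MM401, and 23.0% and 21.7% at 4 h, so that 1 and 1 of 6 at 1 h in DMSO lay near the background. Under plain library size the counts of calls were 0 and 2, 1 and 4, 1 and 1, and 1 and 2 for the mevalonate genes, and 2 and 2, 2 and 4, 2 and 3, and 3 and 3 for those after squalene, so that calls at 1 h went both ways for the latter. Of all tested genes, that scaling called 10.8% higher and 40.2% lower, 10.7% and 46.4%, 7.52% and 38.6%, and 16.5% and 24.4%, in the same order. The lower calls of both lists at 1 h lay below these shares. Some small rises turned negative under plain library size: Lbr at 1 h in both arms, Acat2 at 4 h in DMSO and Ggps1 at 1 h in MM401.

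**Figure D3:**
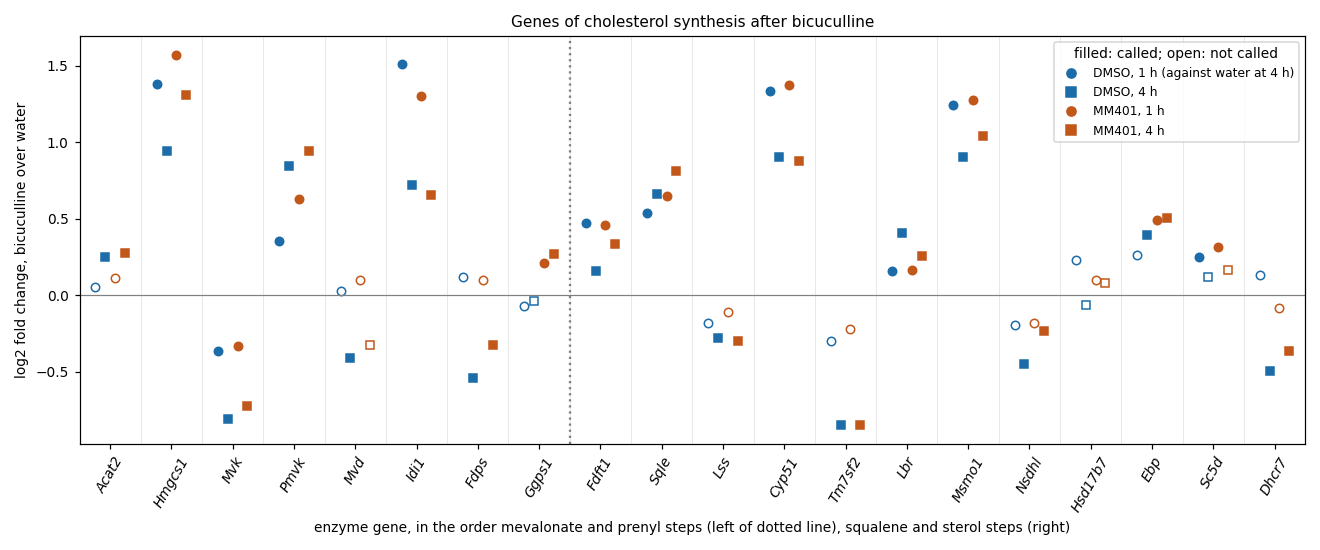
Log2 fold change of bicuculline over water for the 20 enzyme genes in pathway order (horizontal axis), mevalonate and prenyl steps left of the dotted line and squalene and sterol steps right of it; blue is DMSO, orange MM401, circles 1 h, squares 4 h, filled called. Hmgcs1, Idi1, Cyp51 and Msmo1 stand above 1 at 1 h in both arms, and Mvk and Tm7sf2 lie below -0.7 at 4 h.

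Among 5 other genes of SREBP control and response, 1 was called higher and 2 lower at 1 h in DMSO, 2 and 3 at 4 h, 1 and 3 at 1 h in MM401, and 1 and 3 at 4 h. All tested genes had 20% higher and 24.5% lower at 1 h in DMSO, and 23.7% and 25.5% at 4 h. In MM401 they had 18.1% and 21.8% at 1 h, and 23.0% and 21.7% at 4 h. So 1 higher of 5 was at the background at 1 h in DMSO and at both times in MM401. The counts under plain library size were 1 and 3, 1 and 3, 1 and 4, and 1 and 3. Of all tested genes, that scaling called 10.8% and 40.2%, 10.7% and 46.4%, 7.52% and 38.6%, and 16.5% and 24.4%. Stard4, a sterol carrier protein, rose in all 4 comparisons, by 0.90 and 0.87 (log2) at 1 h and 4 h in DMSO and by 0.93 and 1.19 in MM401. Scap, the escort, fell in all 4 (-0.36, -0.33, -0.43 and -0.52), and so did Mbtps1, the first protease that cuts the SREBPs (-0.38, -0.40, -0.39 and -0.29).

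Genes of fatty acid synthesis are the other branch of SREBP targets. Of 10 such genes, 2 were called higher and 0 lower at 1 h in DMSO, 2 and 2 at 4 h, 6 and 0 at 1 h in MM401, and 3 and 2 at 4 h. All tested genes had 20% higher and 24.5% lower at 1 h in DMSO, 23.7% and 25.5% at 4 h, 18.1% and 21.8% at 1 h in MM401, and 23.0% and 21.7% at 4 h, so that the higher calls in DMSO and the lower calls at 4 h in both arms lay near the background. These counts turned on the scaling: under plain library size they were 0 and 3, 1 and 7, 0 and 0, and 2 and 2. Of all tested genes, that scaling called 10.8% higher and 40.2% lower at 1 h in DMSO, and 10.7% and 46.4% at 4 h. In MM401 it called 7.52% and 38.6% at 1 h, and 16.5% and 24.4% at 4 h. Acly, which makes acetyl-CoA from citrate for both lipids, averaged 48.0 ± 3.62 CPM in DMSO water, 47.7 ± 2.77 CPM at 1 h and 92.3 ± 2.53 CPM at 4 h of bicuculline (SD, n = 3), so it was high at 4 h. Its log2 fold change at 4 h was 0.94 ± 0.065 (adjusted p = 9.64e-11) in DMSO and 1.01 ± 0.074 (adjusted p = 7.47e-10) in MM401. Fasn, fatty acid synthase, fell at 4 h in DMSO (-0.52 ± 0.11, adjusted p = 5.01e-04) and in MM401 had -0.011 ± 0.12 (adjusted p = 0.951, not called). Of 16 genes of cholesterol uptake, efflux and turnover, 3 were called higher and 3 lower at 1 h in DMSO, 2 and 2 at 4 h, 2 and 3 at 1 h in MM401, and 5 and 3 at 4 h. These counts, with TMM, lay near or below the TMM shares of all tested genes given above, apart from the 5 higher of 16 at 4 h in MM401 beside 23.0%. Plain library size gave 0 and 4, 0 and 8, 1 and 7, and 3 and 3. The 8 lower at 4 h in DMSO and the 7 lower at 1 h in MM401 lay near the 46.4% and 38.6% of all tested genes. Abca1, an exporter of cholesterol, was called higher in all 4 comparisons with TMM (0.37, 0.44, 0.38 and 0.48), as did Soat1, which esterifies cholesterol for storage (0.30, 0.31, 0.46 and 0.40), while Abcg4, a neuronal exporter, fell in all 4 under both scalings (-0.64, -0.63, -0.70 and -0.81 with TMM). With plain library size Abca1 was called only at 4 h in MM401 (0.41) and had 0.17, 0.16 and 0.17 in the other 3 comparisons. Soat1 then had 0.10 and 0.028 in DMSO, neither of them called, and was called in MM401 (0.25 and 0.33).

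In a mixed culture more RNA per cell and more cells of a type cannot be told apart. All 8 neuronal markers were detected, with summed levels of 4997 to 7975 CPM, and all 8 astrocyte markers, with 449 to 928 CPM. The 9 markers of the oligodendrocyte lineage summed to 165 to 218 CPM, those of microglia to 27.4 to 45.3 CPM (Tmem119 did not pass the filter on low counts) and those of endothelial and mural cells to 8.37 to 13.9 CPM (Cldn5 did not pass). The astrocyte sum was higher at 1 h of bicuculline, but its markers did not all go that way in DMSO, where 3 of 8 were above 0 and the median log2 difference was -0.13. In MM401 8 of 8 were above 0 at 1 h, with a median of 0.43. The sum ran from 485 to 733 CPM in DMSO water, 781 to 885 CPM in bicuculline at 1 h and 646 to 721 CPM at 4 h, and in MM401 from 552 to 745 CPM in water at 1 h, 449 to 551 CPM in water at 4 h, 848 to 928 CPM in bicuculline at 1 h and 640 to 718 CPM at 4 h. Of the 8 astrocyte markers 3 were called higher and 2 lower at 1 h in DMSO and 1 and 0 at 4 h, and in MM401 4 were higher and 0 lower at each time. With plain library size these counts were 2 and 2, 0 and 0, 1 and 0, and 3 and 0. Of all tested genes, the fit with TMM called 20% higher and 24.5% lower at 1 h in DMSO, and 23.7% and 25.5% at 4 h. In MM401 it called 18.1% and 21.8% at 1 h, and 23.0% and 21.7% at 4 h. Plain library size called 10.8% and 40.2%, 10.7% and 46.4%, 7.52% and 38.6%, and 16.5% and 24.4%, in the same order. With TMM, 2 lower of 8 at 1 h in DMSO lay near the background. The neuronal sum was 4997 to 6205 CPM in DMSO water, 6151 to 6636 CPM at 1 h and 7500 to 7975 CPM at 4 h, and in MM401 it was 5094 to 5376 CPM in water and 6029 to 7160 CPM in bicuculline at 1 h, and 5902 to 6013 CPM and 6744 to 7385 CPM at 4 h, with bicuculline above water at both times. Of the 8 neuronal markers 3 were called higher and 1 lower at 1 h in DMSO, 5 and 2 at 4 h, 4 and 2 at 1 h in MM401, and 4 and 2 at 4 h, or 3 and 3, 4 and 2, 3 and 2, and 4 and 2 under plain library size. Beside the shares of all tested genes given above, the lower calls with TMM lay near or below the background. The microglial sum moved with the 4 h response, from 30.0 to 33.6 CPM in DMSO water to 35.5 to 42.6 CPM in bicuculline, and in MM401 from 29.6 to 32.4 CPM to 41.3 to 45.3 CPM. Of the 6 microglial markers tested, 2 were called higher at 4 h in DMSO and 4 in MM401, against 0 and 3 under plain library size. Of all tested genes, 23.7% and 23.0% were called higher with TMM, and 10.7% and 16.5% under plain library size. At 1 h the microglial sums of bicuculline and water overlapped in both arms (27.4 to 35.6 CPM in DMSO bicuculline, and 31.1 to 38.1 CPM in water and 34.2 to 37.6 CPM in bicuculline in MM401). The oligodendrocyte sum was 165 to 189 CPM in DMSO water, 189 to 205 CPM in bicuculline at 1 h and 198 to 211 CPM at 4 h. In MM401 it was 170 to 177 CPM in water and 201 to 206 CPM in bicuculline at 1 h, and 171 to 183 CPM and 208 to 218 CPM at 4 h, without overlap at either time. Of its 9 markers 2 were called higher at 1 h and 3 at 4 h in each arm, with 0 lower. The 2 of 9 at 1 h lay near the 20% (DMSO) and 18.1% (MM401) of all tested genes called higher. The 3 of 9 at 4 h stood beside 23.7% and 23.0%. Plain library size gave 1 higher and 3 lower at 1 h in DMSO, 0 and 1 at 4 h, 0 and 0 at 1 h in MM401, and 2 and 0 at 4 h. Endothelial and mural markers summed to 9.21 to 10.2 CPM in DMSO water, 11.02 to 12.99 CPM in bicuculline at 1 h and 11.5 to 12.8 CPM at 4 h, and in MM401 to 8.41 to 11.5 CPM in water and 11.27 to 11.98 CPM in bicuculline at 1 h, and 8.37 to 9.81 CPM and 10.8 to 13.9 CPM at 4 h. Their part in the responses of the 8 genes was not tested.

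MM401 and DMSO cultures were compared directly to ask whether blocking MLL1 and WDR5 altered the level or the response of these genes. In water at 4 h 0 of the 8 genes were called, in a comparison with 14 genes called in all (0.0826%, all higher), where DESeq2 called 105 higher and 57 lower. Hmgcs1 measured 107, 138 and 113 CPM in DMSO and 92.5 and 88.6 CPM in MM401, without overlap, a log2 difference of -0.40 ± 0.10 (adjusted p = 0.136). Insig1 (-0.22 ± 0.079, adjusted p = 0.257) and Fdft1 (-0.20 ± 0.074, adjusted p = 0.274) also had all MM401 libraries below DMSO. These 3 had unadjusted p-values under 0.05, as did 2194 of the 16959 tested genes. The share of all tested genes without overlap between these groups was not counted. The 8 differences ran from -0.40 to 0.041, and their 95% intervals lay within 0.656-fold and 1.18-fold. This comparison depended on 1 library. Without replicate 1 of DMSO in water, which had the lowest astrocyte marker sum of its group (485 CPM), 1272 genes were called, and 3 of the 8 were called lower in MM401, namely Hmgcs1 (-0.47), Insig1 (-0.30) and Srebf1 (-0.35). Astrocyte markers moved the same way. With all 5 libraries their median log2 difference was -0.44, with 8 of 8 below 0 and 0 called, and without that library it was -0.61, with 4 of 8 called lower. Neuronal markers had a median of 0.10, or 0.16 without it. The part of these markers in the values of the 8 genes was not tested.

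In bicuculline at 1 h the differences between MM401 and DMSO ran from 0.0027 to 0.22 on the log2 scale, 0 of the 8 genes were called (adjusted p = 0.999 for each), and 1 gene in all was called (0.00590%, higher). The 95% intervals lay within 0.862-fold and 1.31-fold, and 2 of the 8 and 540 of the 16959 tested genes had an unadjusted p under 0.05. Sqle (0.22 ± 0.083) and Fdft1 (0.21 ± 0.066) had the largest values, and all 8 genes overlapped between the groups. In bicuculline at 4 h the differences ran from -0.028 to 0.16, with intervals within 0.860-fold and 1.24-fold and a lowest adjusted p of 0.639, for Insig1. There edgeR called 0 of the 8 and 0 of all tested genes (0%), where 1 of the 8 and 1309 of all genes had an unadjusted p under 0.05 and DESeq2 called 7 genes.

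The interaction asks whether the 4 h response to bicuculline, each taken against its own water, differed between MM401 and DMSO. The estimates ran from -0.065 to 0.38 on the log2 scale, and the largest were those of Insig1 (0.38 ± 0.11, adjusted p = 0.229) and Hmgcs1 (0.37 ± 0.14, adjusted p = 0.243). Here edgeR called 0 of the 8 and 0 of all genes (0%), with 2 of the 8 and 2552 of all genes at an unadjusted p under 0.05, and DESeq2 called 436 genes, 2 higher and 434 lower, while 6 of the 8 estimates lay above 0. The 95% intervals ran from 0.794-fold to 1.57-fold. Without replicate 1 of DMSO in water, edgeR called 1551 genes and 3 of the 8, Hmgcs1 (0.44), Insig1 (0.46) and Srebf1 (0.42). The astrocyte markers had a median interaction of 0.49, above 0 for 8 of 8 with 0 called, and 0.72 without that library, with 2 called higher. The neuronal markers had a median of -0.20, below 0 for 8 of 8, and -0.24 without it, with 0 called either time. Their part in the interaction was again not tested. At 1 h the difference between the responses was not tested, since a DMSO water group of that time was not analysed here.

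**Figure D4:**
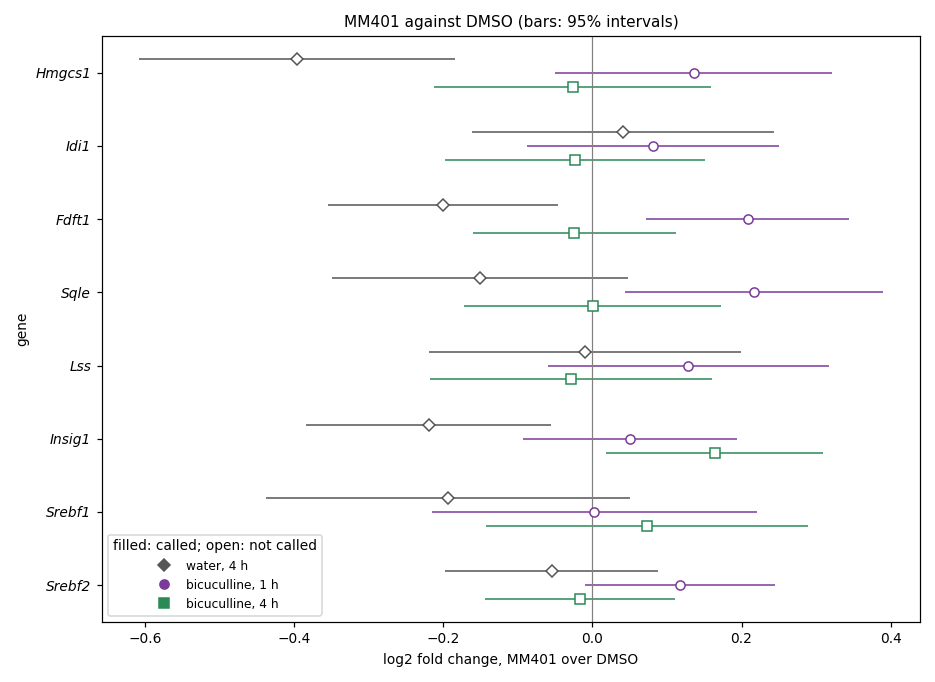
Log2 fold change of MM401 over DMSO for each of the 8 genes (edgeR, bars are 95% intervals), in water at 4 h and after 1 h and 4 h of bicuculline; all symbols are open because none of the 8 was called. Hmgcs1 in water lies lowest, at -0.40, and in bicuculline all values lie between -0.03 and 0.22.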

How the data were processed

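The values were raw read counts per gene over whole genes, introns included, as the authors deposited them, with positions on mouse build mm10. Per the submitters' processing notes Bowtie2, featureCounts, UMI-tools, deepTools and DESeq2 were used, without roles or versions, and the use of strand is not given in the sources used here. The tools were edgeR 4.0.16 and limma 3.58.1 under R 4.3.3. A single fit held the 20 libraries, with 7 group means, no block and TMM scaling. Of the genes, 16959 passed filterByExpr (minimum count 10, minimum total 15). Genes were tested two-sided with the robust quasi-likelihood test, in 11 comparisons, and called at a Benjamini-Hochberg adjusted p under 0.05 over all of them. CPM are counts relative to the TMM-scaled total, and SE is the log2 fold change over the root of the F value. Alternatives were DESeq2 1.42.0, plain library size, no low-count filter, 21 libraries, each comparison's groups alone, the replicate number as a block, leaving out each library, and (added after seeing the data) MM401 water at 4 h as the reference at 1 h. The members and lists were chosen with earlier results of these data known. The 8 genes are always named, with up to 3 of the most similar profiles each. Some genes of the lists and profiles are not reported here. From the other lists, genes were named from up to 3 called in each direction with the largest fold change per bicuculline comparison. Replicates of a group differed beyond sampling noise (chi-square per degree of freedom 6.14 to 78.5 over 19 pairs). Intervals are at 95%. Depth was 49886348 to 87939384 counts per library.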

Additional observations from a re-analysis of the deposited data

How the results depend on the processing

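The rises of Hmgcs1, Idi1 and Sqle over water kept their direction and call in both arms and at both times under every alternative run, each library left out included, and so did those of Insig1 and Fdft1 at 1 h. No alternative changed the reference of the DMSO comparison at 1 h, which is water at 4 h, so none bears on the part of time in it. Plain library size changed more signs than any other single alternative fit. Changes of about 0.2 on the log2 scale, such as those of Srebf2, are as small as the shift of the median gene between TMM and plain library size. The 8 genes held 455 counts or more in each of the 20 libraries, and no fit at lower depth was run. MM401 with water at 4 h has 2 libraries, and its comparisons carry larger standard errors.

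Plain library size turned the sign of Fdft1 (-0.12), Srebf1 (-0.19) and Srebf2 (-0.072) at 4 h of bicuculline in DMSO, of Srebf2 at 1 h (-0.033) and of Srebf2 between 4 h and 1 h (-0.039). It also turned uncalled differences of MM401 from DMSO in bicuculline at 4 h for Fdft1 (0.088), Hmgcs1 (0.084), Idi1 (0.087), Lss (0.083) and Srebf2 (0.094), in bicuculline at 1 h for Insig1 (-0.0020) and Srebf1 (-0.047), in water for Idi1 (-0.049), and in the interaction for Idi1 (0.14) and Lss (0.18). With each comparison's groups fitted alone, values near 0 changed sign for Idi1 (0.00034) and Srebf2 (0.0075) in MM401 against DMSO at 4 h, for Srebf1 there at 1 h (-0.0085), and for Srebf1 at 1 h of bicuculline in DMSO (1.7e-05). DESeq2 did so for Lss in water (0.011), Sqle at 4 h (-0.0095) and Srebf1 at 1 h (-0.0029) in MM401 against DMSO, and for Srebf1 at 1 h of bicuculline in DMSO (0.014). No low-count filter gave -0.0018 for Sqle at 4 h and -0.00014 for Srebf1 at 1 h in MM401 against DMSO, and 21 libraries gave -0.013 for Srebf1 there at 1 h and -0.00016 for Srebf2 between 4 h and 1 h in DMSO. The cause of these turns was not tested.

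With 1 library left out at a time, uncalled values crossed 0 for Hmgcs1 (-0.077 to 0.033), Idi1 (-0.10 to 0.042), Lss (-0.11 to 0.049), Sqle (-0.031 to 0.037) and Srebf2 (-0.061 to 0.026) in MM401 against DMSO in bicuculline at 4 h. They also did for Idi1 (-0.15 to 0.013), Lss (-0.10 to 0.073) and Srebf2 (-0.0062 to 0.080) in the interaction, and for Idi1 (-0.038 to 0.13) and Lss (-0.10 to 0.052) in MM401 against DMSO in water, and for Srebf1 (-0.18 to 0.13) in bicuculline at 1 h in DMSO. The others were Srebf1 (-0.059 to 0.21) in bicuculline at 4 h in DMSO, Srebf1 (-0.033 to 0.042) in MM401 against DMSO in bicuculline at 1 h, and Srebf2 (-0.020 to 0.087) in 4 h against 1 h of bicuculline in DMSO.

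Of the 8 genes, 5 were called in MM401 at 4 h under plain library size and 5 to 8 with a library left out. The count called ran from 0 to 3 for MM401 against DMSO in water and for the interaction, and from 0 to 2 between the MM401 water times, where 21 libraries gave 1. Over all genes, 21 libraries, which add a library of 316741 counts, called 3745 between bicuculline times in DMSO, 3646 in MM401, 19 between the water times and 0 for MM401 against DMSO in water. DESeq2 called 275 between the water times, 162 for MM401 against DMSO in water, 14 in bicuculline at 1 h, 7 at 4 h and 436 in the interaction. Groups alone called 328 between the water times and 0 for MM401 in water, where plain library size called 4. With a library left out, the calls ran from 14 to 140 between the water times, 0 to 1272 for MM401 in water, 0 to 2 in bicuculline at 1 h and 0 to 1551 in the interaction.

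Groups share replicate numbers, whose meaning the labels do not give. Of 27 correlations of same-numbered libraries' deviations, 7 were over 0.1 (median 0.0859, range -0.205 to 0.213), and in 0 of 10 comparisons were all over 0.1. With the replicate number as a block, 4 genes were called for MM401 against DMSO in bicuculline at 1 h, and Lss turned to 0.0093 in the interaction.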

Other observations

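The shallow library, replicate 3 of the MM401 water group at 4 h, was left out of the comparisons and held 19 counts in Hmgcs1, 1 in Sqle, 0 in Insig1, 8 in Srebf1, 24 in Srebf2, 16 in Fdft1, 6 in Lss and 0 in Idi1.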
